A study of Mus musculus with 12 samples.

Results

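The comparison described here is the response to hepatocyte growth factor (HGF) in mouse livers whose Met gene was deleted in hepatocytes. It rests on 6 of the 12 arrays of the series, chosen by their titles: 3 knockout livers without HGF and 3 knockout livers after HGF. The knockout mice carried a Met gene flanked by loxP sites on both chromosomes together with a Cre transgene. That transgene was either Alfp-Cre, under the albumin and alpha-fetoprotein promoter and enhancer and active in the embryo, or Alb-Cre, under the albumin promoter and active from 2 weeks after birth. Which of the transgenes a given mouse carried is not in the labels. HGF-treated mice received 2 µg of recombinant mouse HGF by intraperitoneal injection and their livers were taken after 2 hours. The labels call the other knockout livers unstimulated, and they do not settle whether each of those mice received a salt injection. The other 6 arrays are livers of mice with the loxP-flanked gene and no stated Cre, 3 without and 3 with HGF, and are called control livers below. Each array held total RNA of 1 liver, and no strain, age or hour of collection is named in the labels. The livers are numbered as in the titles, so that unstimulated livers 1 to 3 and HGF livers 1 to 3 are 6 different animals.

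HGF is secreted as an inactive chain that proteases such as the HGF activator and hepsin cut into its active form. It binds Met, a receptor tyrosine kinase, and the activated receptor recruits adaptors such as Gab1 and Grb2 and signals through ERK, Akt and Stat3. In the liver HGF comes from non-parenchymal cells and is best known as a growth, survival and motility signal for hepatocytes during regeneration. Cre was driven by promoters of the hepatocyte lineage, so Met in liver cells outside that lineage was not targeted. All values below are log2(intensity + 1) of the deposited probe set intensities, and all differences are on that scale, on which 1 unit is a doubling for genes well above background. Levels of different genes are not compared with each other, since probe sets differ in brightness.

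The targeted gene gave no separation of genotypes. Met, the HGF receptor, was at 7.06, 6.68 and 7.18 without HGF and 6.61, 7.40 and 6.29 with HGF, against 6.62 to 6.84 in the control livers without HGF and 6.59 to 7.02 in those with HGF. The 4 groups overlapped, and where the probe set lies relative to the deleted part is not known here, so these values check nothing about the labels. Hgf itself was at 3.78, 3.39 and 4.62 without HGF and 3.92, 3.58 and 3.24 with HGF and did not pass the filter on low values. Liver identity was plain on every array. All 13 hepatocyte markers on the array passed the filter, and Alb, the albumin gene, was at 14.49, 14.43 and 14.53 without HGF and 14.50, 14.49 and 14.48 with HGF. Pericentral hepatocyte markers were higher with HGF in 3 of 9 tested genes and periportal ones in 3 of 6. Of 7 cholangiocyte markers none passed, and Krt19 reached 2.97 at most.

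The 6 knockout livers did not sort by treatment, which has to be stated before any difference is read. Over the 6112 genes with 1 symbol and a value of at least 4 on at least 3 of the 6 arrays, the most alike arrays were unstimulated liver 2 and HGF liver 3, at a Pearson correlation of 0.9904 across genes. Only 66 of those genes, or 1.08%, differed by more than 1 between these 2 arrays, while unstimulated livers 2 and 3 differed by that much in 706 genes and HGF livers 2 and 3 in 736. Unstimulated liver 1 and HGF liver 2 were the next most alike pair at 0.9874. On the first principal component, which held 72.87% of the variance, unstimulated liver 2 and HGF liver 3 lay at 34.5 and 36.4. HGF liver 1 lay at 3.72, and unstimulated livers 1 and 3 and HGF liver 2 lay at -20.7, -26.6 and -27.4. HGF liver 1 stood apart on the second component, with 8.98% of the variance, at -19.7. Each of the 6 livers had its highest correlation with a liver of the other group. Unstimulated liver 3 was closest to HGF liver 2, at 0.9844 against 0.9833 with unstimulated liver 1. HGF liver 1 was closest to unstimulated liver 1, at 0.9748. Whether any titles of the knockout arrays were exchanged was not tested, and the comparisons keep the titles as deposited. "Unstimulated liver 2" and "HGF liver 3" thus mean the arrays so titled, and every difference with HGF given below is a difference between arrays titled so.

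Within-group spread was wider in the knockout livers than in the control livers. The SD over 3 arrays exceeded 1 in 290 of 6427 genes in unstimulated knockout livers and in 300 in HGF knockout livers, against 23 and 63 in the corresponding control groups. Pooled over the 2 knockout groups, 245 of the 6112 genes had a within-group SD above 1, which is 4.01% of the genes. In 131 of those 245 genes unstimulated liver 2 and HGF liver 3 lay above the other 4 arrays, and in 71 they lay below them. The 12 genes with the largest SD were Dbp, Cxcl10, Arrdc3, Rnd1, Icam1, Mt2, Lcn2, Saa2, Cd14, Usp2, S100a9 and Saa3, with pooled SDs from 3.18 to 4.38. They include clock-controlled genes, NF-kappaB targets, acute phase proteins and a metallothionein, which are described group by group below.

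With the labels as deposited, no gene passed the test for HGF. By limma, 0 of 6112 genes (0%) had a Benjamini-Hochberg adjusted p under 0.05, and the smallest adjusted p was 0.999. At an unadjusted p under 0.05 there were 37 genes (0.605%) higher and 25 (0.409%) lower with HGF. The median standard error of a difference was 0.185, the median difference over all genes was -0.0057, and 27 genes differed at least 2-fold between the group means. Of these 27 genes, 17 had a within-group SD above 1. In 898 genes, or 14.7%, the absolute difference exceeded the pooled SD. The lists below were also sensitive to single livers: the number of members higher with HGF went from 0 to 10 of 10 NF-kappaB genes, from 2 to 19 of 19 interferon targets and from 2 to 25 of 27 acute phase genes when livers were left out. The lowest counts came without both replicate 3 livers for NF-kappaB and acute phase genes, and without HGF liver 3 alone for interferon targets. The highest came without unstimulated liver 2. An exact permutation test of 3 against 3 arrays cannot give a two-sided p below 0.1, so it was not used for single genes. No call was made in any list below, and "higher" and "lower" refer to group means that did not pass the test.

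**Figure D1:**
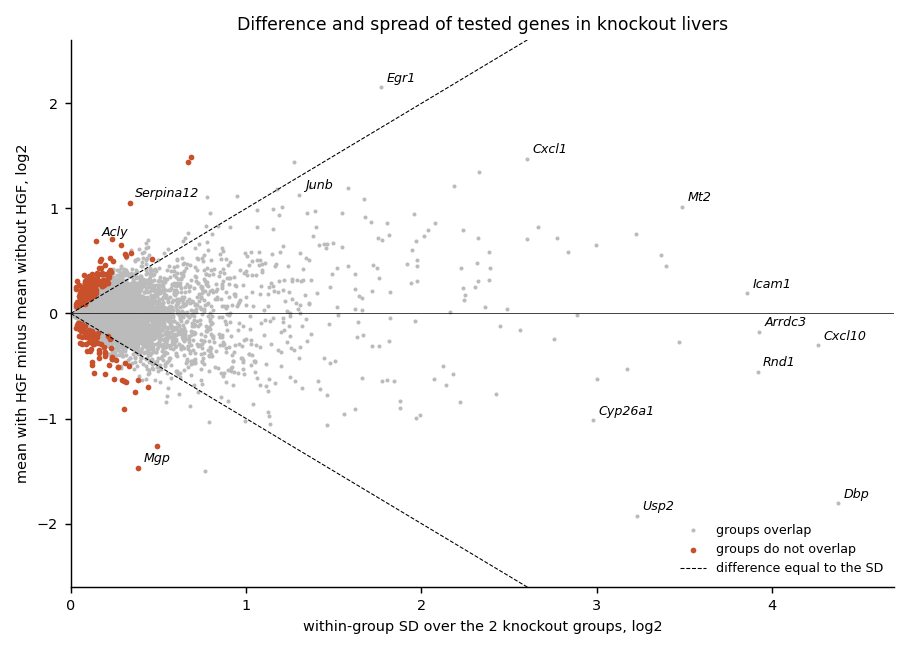
Each point is 1 of the 6112 genes in knockout livers: the horizontal axis is the SD within the 2 groups of 3 arrays and the vertical axis is the mean with HGF minus the mean without, both in log2 units, with dashed lines where the difference equals the SD. The widely spread genes such as Dbp and Cxcl10 lie to the right inside the dashed lines, and the genes whose groups did not overlap, in orange, lie close to the vertical axis.

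NF-kappaB is a family of transcription factors that cytokines and microbial products release from inhibitors, and it induces genes of its own inhibitors. Among 10 tested genes of this list, 6 were higher and 4 lower with HGF, with a median difference of 0.22, and 9 had a within-group SD above 1. The mean level of the 10 genes was 6.05, 9.32 and 5.55 in the unstimulated livers and 6.64, 5.70 and 9.17 in the HGF livers. Unstimulated liver 2 and HGF liver 3 thus stood within the 8.92 to 9.35 of the HGF-treated control livers, and the other 4 knockout livers stood nearer to the 5.64 to 5.94 of the unstimulated controls.

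Icam1, an adhesion molecule for leukocytes, was at 6.05, 11.18 and 3.44 without HGF and 6.89, 3.40 and 10.96 with HGF. The group means were 6.89 ± 3.94 without HGF and 7.08 ± 3.78 with HGF (SD, n = 3 each), a difference of 0.19 with a standard error of 2.56. Unstimulated liver 2 and HGF liver 3 were high and the groups overlapped completely. Nfkbia, the IkappaB-alpha inhibitor, followed with 8.85, 11.27 and 9.05 without HGF and 9.0, 8.91 and 10.81 with HGF, and only the same 2 livers exceeded 10. Bcl3, a nuclear cofactor of NF-kappaB, was at 7.0, 10.15 and 6.05 without HGF and 8.87, 6.84 and 10.31 with HGF, and here HGF liver 1 lay between the high and the low arrays. Tnfaip3, which encodes the feedback inhibitor A20, was at 3.41, 10.22 and 2.45 without HGF and 3.73, 2.44 and 9.59 with HGF, against 2.15 to 2.38 and 9.67 to 10.82 in control livers without and with HGF. Tnfaip3 was high on 2 arrays only and so did not pass the filter, as was also the case for the chemokine gene Cxcl2 and the stress gene Gadd45b.

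Chemokines and cytokines showed the same 2 high livers, joined by HGF liver 1 for some genes. Of 11 tested genes 4 were higher and 7 lower with HGF, the median difference was -0.05, and 7 had an SD above 1. Cxcl10, a chemokine induced by interferon and NF-kappaB, was at 7.34, 12.51 and 4.11 without HGF and 7.27, 3.62 and 12.17 with HGF. HGF liver 1 was as low as unstimulated liver 1 for this gene. Cxcl1, a neutrophil chemoattractant, was at 7.23, 11.70 and 6.42 without HGF and 10.94, 7.26 and 11.58 with HGF, and HGF liver 1 was here among the high arrays. Its group means were 8.45 ± 2.84 without HGF and 9.92 ± 2.33 with HGF (SD, n = 3 each), a difference of 1.47 with a standard error of 1.72. Il1b, the interleukin-1 beta gene, and Cxcl13, a lymphocyte chemoattractant, had the order of Cxcl1, with 3.15, 5.39 and 3.19 without HGF and 5.52, 3.18 and 5.95 with HGF for Il1b. Cxcl13 was at 3.72, 7.28 and 3.37 without HGF and 7.56, 3.28 and 7.58 with HGF. Ccl9, another chemokine, was at 9.07, 10.31 and 9.77 without HGF and 9.31, 9.71 and 10.06 with HGF, with unstimulated liver 2 and HGF liver 3 again highest.

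The promoters of some of these genes are shown because members of both lists were high together in unstimulated liver 2 and HGF liver 3. The sequences are the 250 bases before the annotated start, 5′ to 3′ on the gene's strand, from RefSeq on GRCm38.p6, with matches to the 10-base kappaB consensus, searched on both strands, in capitals. The genes printed here and further below were chosen after the motif search.
Cxcl1: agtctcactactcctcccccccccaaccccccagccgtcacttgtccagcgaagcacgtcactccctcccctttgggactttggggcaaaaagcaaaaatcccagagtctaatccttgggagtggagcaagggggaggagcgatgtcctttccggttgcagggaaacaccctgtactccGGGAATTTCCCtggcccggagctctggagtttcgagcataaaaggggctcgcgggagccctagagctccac
Cxcl10: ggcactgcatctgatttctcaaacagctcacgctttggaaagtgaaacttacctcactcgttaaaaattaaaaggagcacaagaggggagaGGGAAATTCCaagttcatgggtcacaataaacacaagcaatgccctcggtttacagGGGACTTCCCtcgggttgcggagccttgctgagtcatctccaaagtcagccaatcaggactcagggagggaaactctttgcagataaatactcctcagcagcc
Nfkbia: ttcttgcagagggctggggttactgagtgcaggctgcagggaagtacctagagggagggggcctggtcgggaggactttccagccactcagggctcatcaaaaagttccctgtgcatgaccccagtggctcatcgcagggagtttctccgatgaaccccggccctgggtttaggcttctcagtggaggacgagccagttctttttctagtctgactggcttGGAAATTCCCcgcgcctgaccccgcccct
The Cxcl1 window is chr5:90890995-90891244 on the plus strand, and its 2 overlapping matches lie 71 to 61 bases before the start. The Cxcl10 window is chr5:92348890-92349139 on the minus strand, with matches 159 to 150 and 103 to 94 bases before the start. The Nfkbia window is chr12:55492648-55492897 on the minus strand, with a match 29 to 20 bases before the start. A match was found in 3 of the 8 tested NF-kappaB list genes and 3 of the 10 tested chemokine genes that have a promoter in the table, and in 3.9% of all 32851 promoter windows of this length. Matches were not particular to these lists: the other lists ranged from 0 of 16 xenobiotic genes to 4 of 14 fat synthesis genes. Icam1 and Birc3 had no match in this window. The matches describe the letters of the window and nothing was measured at them.

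Interferon targets were tested for 19 genes, of which 17 were higher and 2 lower with HGF, with a median difference of 0.24 and 9 SDs above 1. Their mean level was 6.16, 7.82 and 5.99 without HGF and 6.56, 6.19 and 7.98 with HGF. Gbp2, a guanylate-binding protein of cell-autonomous immunity, was at 4.98, 8.90 and 4.40 without HGF and 5.60, 4.73 and 8.89 with HGF, high in the same 2 livers. Oasl1, an inducible regulator of the antiviral response, had the largest difference of the list, 0.82 with a standard error of 0.93, at 4.95, 6.40 and 3.30 without HGF and 5.02, 4.97 and 7.13 with HGF. Iigp1, an interferon-inducible GTPase, spanned only 10.98 to 12.01 over the 6 livers, with the same 2 arrays on top. HGF liver 1 was nearer to unstimulated liver 1 than to unstimulated liver 2 in all 9 widely spread interferon targets and in 8 of the 9 widely spread NF-kappaB genes. Over all 245 widely spread genes this held for 131 (53.5%), and the reverse for 114 (46.5%).

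**Figure D2:**
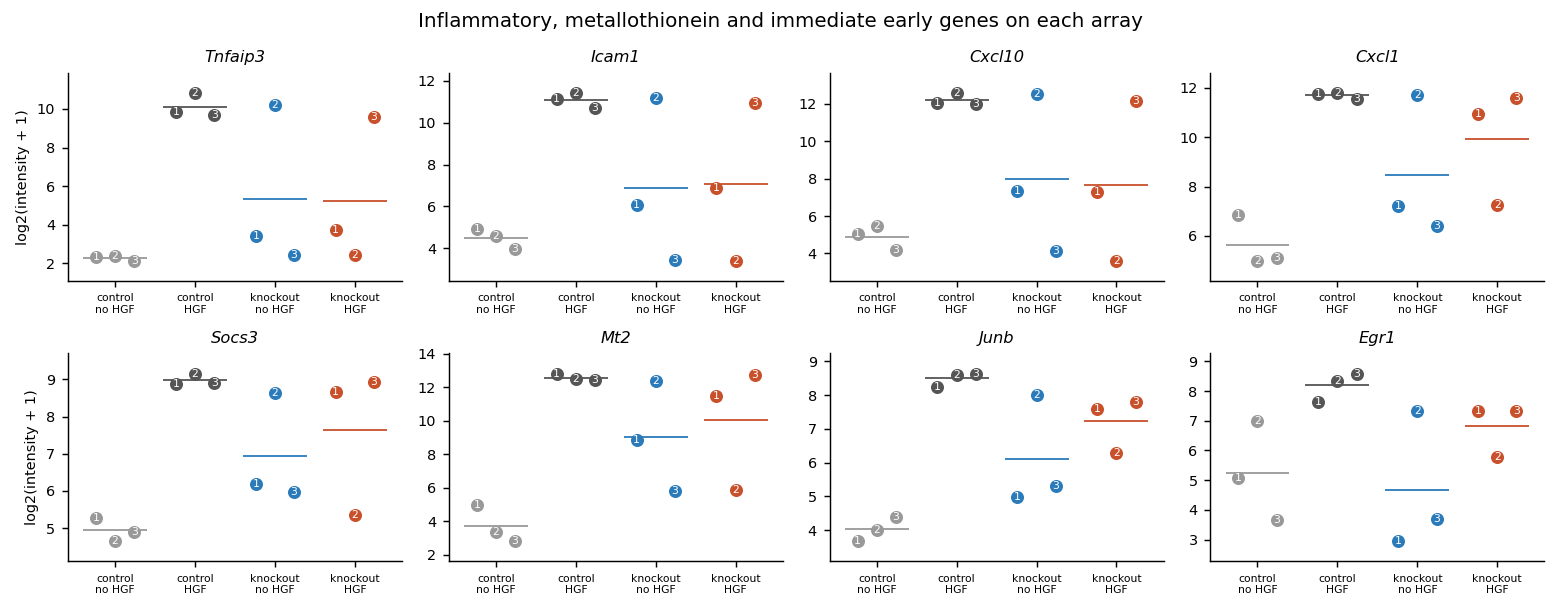
Log2(intensity + 1) of 8 genes on all 12 arrays, 1 point per liver with its replicate number and a line at each group mean of 3 livers. Unstimulated knockout liver 2 and HGF knockout liver 3 lie within the range of the HGF-treated controls or less than 1 unit below it in all 8 panels, and HGF knockout liver 1 joins them for Cxcl1, Socs3, Mt2, Junb and Egr1.

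The acute phase response is the change in plasma proteins that the liver makes under interleukin-6 and interleukin-1. Of 27 tested acute phase genes 22 were higher and 5 lower with HGF, with a median difference of 0.16, and 12 had an SD above 1. Lcn2, a siderophore-binding protein of liver and neutrophils, was at 8.29, 12.27 and 6.23 without HGF and 8.47, 4.92 and 12.57 with HGF. Saa2, a serum amyloid A gene, was at 8.48, 12.76 and 6.80 without HGF and 10.95, 5.66 and 12.78 with HGF, so HGF liver 1 lay between the 2 highest arrays and the other 3. Saa3 was at 8.75, 12.62 and 6.81 without HGF and 7.66, 6.26 and 12.69 with HGF and had HGF liver 1 among the low arrays. Saa2 and its neighbour Saa1 are near-identical copies, so the value of Saa2 may include signal of Saa1.

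Il1r1, the interleukin-1 receptor, had the largest difference of the list, 0.73 with a standard error of 1.34. It was at 6.32, 9.33 and 5.93 without HGF and 8.69, 5.49 and 9.61 with HGF, with HGF livers 1 and 3 and unstimulated liver 2 above the other 3 livers. Cd14, the coreceptor for lipopolysaccharide, was at 3.02, 9.02 and 2.75 without HGF and 5.38, 2.36 and 8.72 with HGF. Fgb, the fibrinogen beta chain, is abundant in every liver and was at 13.64, 14.09 and 13.46 without HGF and 14.07, 13.64 and 14.06 with HGF, where the same 3 livers were highest by less than 1 unit.

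Interleukin-6 signalling genes were tested for 14 members, 10 higher and 4 lower with HGF, with a median difference of 0.10 and 4 SDs above 1. Socs3, the feedback inhibitor of the interleukin-6 receptor, was at 6.18, 8.64 and 5.96 without HGF and 8.66, 5.36 and 8.92 with HGF. The group means were 6.93 ± 1.49 without HGF and 7.65 ± 1.99 with HGF (SD, n = 3 each), and unstimulated liver 2 and HGF livers 1 and 3 were high. Stat3, the transcription factor downstream of interleukin-6 and of Met, was at 8.15, 9.39 and 7.83 without HGF and 8.98, 8.05 and 9.46 with HGF, in the same order but over a smaller range. Cish, a feedback inhibitor of Stat5 signalling, was at 6.16, 7.61 and 3.91 without HGF and 5.20, 2.69 and 6.89 with HGF, where unstimulated liver 1 was also above the low arrays. Bcl6, a transcriptional repressor, had the largest difference of the list, 1.44 with a standard error of 0.85, and was at 3.92, 5.96 and 7.27 without HGF and 7.21, 7.76 and 6.50 with HGF. It followed neither of the orders above, since unstimulated liver 1 was lowest.
The Socs3 promoter is given for the STAT element TTCNNNGAA, in capitals, which reads the same on both strands.
Socs3: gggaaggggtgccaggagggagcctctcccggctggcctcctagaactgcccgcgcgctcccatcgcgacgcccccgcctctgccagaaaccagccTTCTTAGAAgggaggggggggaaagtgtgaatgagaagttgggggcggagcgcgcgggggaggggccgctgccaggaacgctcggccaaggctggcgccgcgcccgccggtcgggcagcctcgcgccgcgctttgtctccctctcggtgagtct
This window is chr11:117969367-117969616 on the minus strand of GRCm38.p6 and the match lies 154 to 146 bases before the start. The element was found in 2 of the 14 tested genes of this list with a promoter, in 7 of 21 acute phase genes and in 7.02% of all windows. The other lists ranged from 0 of 16 xenobiotic genes to 5 of 17 interferon targets.

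The few tested neutrophil markers varied together with the inflammatory genes. Of 13 markers on the array 3 passed the filter, S100a8, S100a9 and Lcn2, and all 3 had SDs above 1. Lcn2 is also among the acute phase genes above. S100a9, a calcium-binding protein of neutrophils and monocytes, was at 4.29, 9.51 and 3.74 without HGF and 7.27, 3.06 and 9.49 with HGF. The log2 values summed over all 13 markers were 38.3 to 60.0 without HGF and 34.8 to 61.2 with HGF. The granule protein genes Ngp, Camp, Ltf, Mpo and Elane were near background on all 6 knockout arrays, with a highest value of 3.28 for Ngp. The part of leukocytes in the inflammatory values was not tested, and in whole liver fewer cells of a type and less RNA per cell cannot be told apart.

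Kupffer cell and macrophage markers were tested for 14 of 16 genes. All 14 had a higher mean with HGF, at a median difference of 0.14, while 48.4% of all tested genes were higher. The mean of the 14 was 7.41, 7.66 and 7.86 without HGF and 8.22, 7.53 and 7.85 with HGF. Only HGF liver 1 thus lay above the unstimulated range. The log2 values summed over all 16 markers were 109.9 to 116.7 without HGF and 111.7 to 122.1 with HGF, so the groups overlapped. Clec4f, the lectin receptor specific to Kupffer cells, was at 8.44, 8.19 and 8.96 without HGF and 8.91, 8.61 and 8.23 with HGF. Marco, a scavenger receptor, was the 1 marker with an SD above 1, at 3.15, 4.71 and 3.10 without HGF and 5.76, 3.23 and 5.52 with HGF. Its high arrays were unstimulated liver 2 and HGF livers 1 and 3, as for Cxcl1. Endothelial markers were higher in 9 of 11 tested genes, stellate cell markers in 3 of 5, erythroid markers in 1 of 3, acinar markers in 1 of 1 and the lymphocyte marker Ighm was lower, none with an SD above 1.

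Immediate early genes are switched on within minutes of growth factor signalling through ERK. All 9 tested transcription factors of this class had a higher mean with HGF, with a median difference of 0.52, while 48.4% of all tested genes were higher, and 5 of the 9 had an SD above 1. Egr1, a zinc finger factor that ERK induces, had the largest difference of any tested gene, 2.16 with a standard error of 1.18. It was at 2.95, 7.32 and 3.70 without HGF and 7.32, 5.77 and 7.34 with HGF. The group means were 4.66 ± 2.34 without HGF and 6.81 ± 0.90 with HGF (SD, n = 3 each), and the groups overlapped because unstimulated liver 2 was as high as HGF livers 1 and 3. Junb, an AP-1 subunit, was at 5.0, 8.0 and 5.31 without HGF and 7.59, 6.29 and 7.81 with HGF, and only unstimulated liver 2 kept its groups from separating.

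HGF liver 2, low for the inflammatory genes, was above unstimulated livers 1 and 3 for both Egr1 and Junb. Cebpd, a factor of the acute phase response, did not share this, at 5.42, 9.08 and 5.42 without HGF and 7.19, 4.27 and 8.98 with HGF. Cebpb was at 9.0, 10.52 and 8.13 without HGF and 9.77, 8.64 and 10.35 with HGF. Fos, an AP-1 subunit, stayed below the filter at 2.09, 2.83 and 2.49 without HGF and 3.89, 2.49 and 3.65 with HGF. Of the 24 factors on the array 15 did not pass the filter, so the 9 tested are those bright on at least 3 of the 6 arrays. Over all 24 factors, with no filter, 18 were higher and 6 lower, with a median difference of 0.08, so the count of 9 does not describe the whole class. Without HGF liver 3, 6 of the 9 tested factors were higher and 3 lower.

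The other immediate early genes were higher in 8 of 11 tested members, with a median difference of 0.10 and 4 SDs above 1, and the median was -0.22 without HGF liver 3. Gadd45g, a growth arrest gene, was at 6.46, 10.48 and 7.96 without HGF and 8.94, 3.48 and 10.61 with HGF, a difference of -0.62 with a standard error of 1.99. Rhob, a small GTPase, was at 8.54, 11.49 and 8.11 without HGF and 9.01, 8.20 and 11.03 with HGF, high in unstimulated liver 2 and HGF liver 3. Ier2 was the 1 member of the 11 with all HGF livers above all unstimulated livers, which held for 2.54% of all tested genes. It was at 5.93, 5.82 and 5.64 without HGF and 6.22, 6.07 and 5.97 with HGF, a difference of 0.29 with a standard error of 0.14. ERK feedback genes were tested for 4 of 13, with 1 higher and 3 lower, and with no filter 7 were higher and 6 lower. Dusp6, the phosphatase that inactivates ERK, was at 6.51, 5.59 and 7.05 without HGF and 8.20, 6.97 and 4.97 with HGF, lowest in HGF liver 3 and highest in HGF liver 1. Errfi1, an inhibitor of the epidermal growth factor receptor, was at 12.23, 12.57 and 11.41 without HGF and 12.43, 11.39 and 12.33 with HGF.

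The HGF and Met axis itself showed little spread. Of 29 genes on the array 17 passed the filter, 10 were higher and 7 lower with HGF, the median difference was 0.02, and none had an SD above 1. Hgfac, the HGF activator, had the largest difference, 0.43 with a standard error of 0.22, at 9.68, 9.49 and 9.31 without HGF and 9.62, 10.33 and 9.82 with HGF. Hpn, the protease hepsin, was at 11.21, 10.81 and 10.96 without HGF and 10.92, 11.11 and 10.83 with HGF. Cd44, a coreceptor of Met, was at 4.0, 6.01 and 4.63 without HGF and 5.07, 4.05 and 5.99 with HGF, with unstimulated liver 2 and HGF liver 3 highest. Gab1, the docking protein of Met, was at 5.06, 3.81 and 4.59 without HGF and 4.22, 5.12 and 3.60 with HGF, where the same 2 livers were lowest.

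Metallothioneins bind zinc and copper and are induced by metals, glucocorticoids and the acute phase response. In the list of 17 tested metallothionein, glucocorticoid and stress genes 9 were higher and 8 lower with HGF, with a median difference of 0.04 and 6 SDs above 1. Mt2 was at 8.86, 12.40 and 5.80 without HGF and 11.50, 5.87 and 12.75 with HGF. The group means were 9.02 ± 3.31 without HGF and 10.04 ± 3.67 with HGF (SD, n = 3 each), a difference of 1.02 with a standard error of 2.31. Unstimulated liver 2 and HGF livers 1 and 3 were high, and unstimulated liver 1 lay in between. Control livers without HGF were at 2.82 to 5.0 for Mt2, so 4 of the 6 knockout livers were above them by more than 3 units. Lpin1, a phosphatidate phosphatase and transcriptional cofactor, was at 9.10, 9.16 and 8.28 without HGF and 10.46, 8.55 and 10.89 with HGF, with HGF livers 1 and 3 highest.

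**Figure D3:**
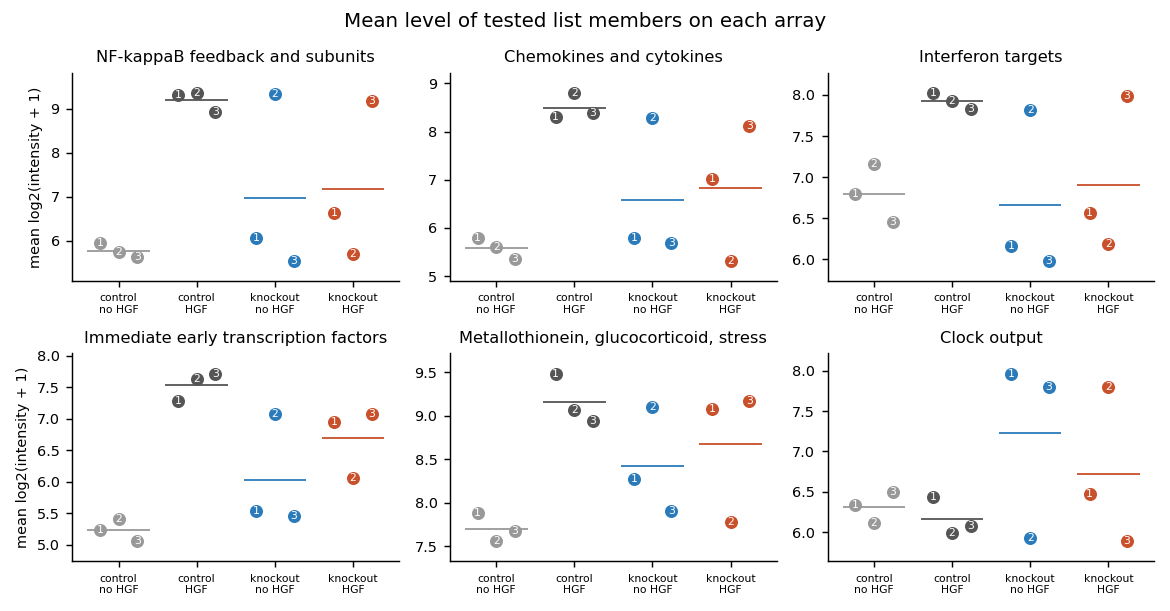
Mean log2(intensity + 1) over the tested members of 6 gene lists on each of the 12 arrays, 1 numbered point per liver and a line at each group mean of 3 livers. Unstimulated knockout liver 2 and HGF knockout liver 3 are highest among knockout livers for the first 3 lists, HGF liver 1 is close to them for immediate early factors and metallothioneins, and in the clock output panel unstimulated livers 1 and 3 and HGF liver 2 stand above all other arrays.

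The largest spread of any gene was in the circadian clock output. In the clock of liver cells Clock and Arntl, which encodes BMAL1, form a dimer that binds E-boxes and activates output factors and its own repressors, and the levels of these transcripts change with the hour of the day. Of 13 tested output genes 4 were higher and 9 lower with HGF, with a median difference of -0.57, and 7 had an SD above 1. Dbp, a transcription factor of the PAR-domain family, was at 10.72, 2.92 and 10.72 without HGF and 5.09, 11.05 and 2.81 with HGF. The group means were 8.12 ± 4.50 without HGF and 6.32 ± 4.26 with HGF (SD, n = 3 each), a difference of -1.80 with a standard error of 2.90. The arrays fell into 3 high and 3 low, with HGF liver 2 among the high and unstimulated liver 2 among the low.

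Usp2, a clock-controlled deubiquitinase, was at 8.31, 2.64 and 8.21 without HGF and 3.04, 8.15 and 2.20 with HGF, and all 6 control livers were at 2.50 to 3.56. Unstimulated livers 1 and 3 and HGF liver 2 thus lay outside the range of every control liver. Ciart, a repressor of the Clock and Arntl dimer, was at 6.98, 2.51 and 6.55 without HGF and 3.46, 6.75 and 3.29 with HGF, against 2.70 to 3.59 in the controls. Wee1, a cell cycle kinase under clock control, was at 5.93, 3.13 and 6.46 without HGF and 3.25, 6.53 and 3.04 with HGF, against 3.21 to 3.43. Alas1, the first enzyme of haem synthesis, did not have this order, at 12.09, 11.07 and 10.75 without HGF and 10.44, 10.22 and 10.88 with HGF.

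Core clock genes were higher in 4 and lower in 4 of 8 tested members, with a median difference of 0.12 and 4 SDs above 1. Arntl was at 2.77, 5.76 and 2.59 without HGF and 5.66, 2.82 and 5.41 with HGF, the reverse order of Usp2, and the control livers were at 4.84 to 5.62. Its difference was 0.92 with a standard error of 1.12. Clock was at 5.75, 7.36 and 5.46 without HGF and 7.26, 5.35 and 7.05 with HGF, in the same order as Arntl. Nr1d2, a nuclear receptor that represses Arntl, was at 8.91, 7.46 and 9.15 without HGF and 7.74, 9.11 and 7.31 with HGF, in the order of Usp2. HGF liver 1 was nearer to unstimulated liver 2 than to unstimulated liver 1 in all 7 widely spread output genes and in 3 of the 4 widely spread core genes. This was unlike its place for interferon targets, and it held for 46.5% of all 245 widely spread genes. The exception among the core genes was Nr1d1, another repressor of Arntl, at 7.27, 4.94 and 6.20 without HGF and 6.88, 7.36 and 5.42 with HGF. The hour of collection is not in the labels and its part in these values was not tested.

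**Figure D4:**
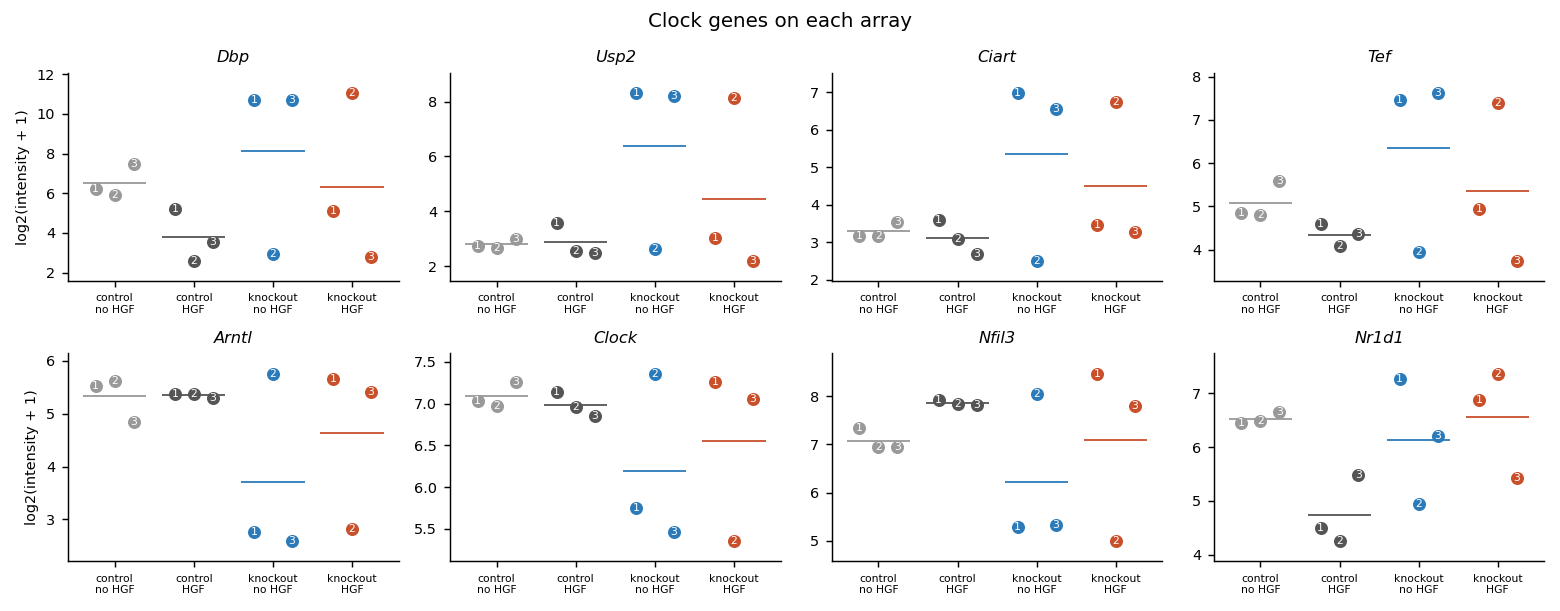
Log2(intensity + 1) of 8 clock genes on all 12 arrays, 1 numbered point per liver and a line at each group mean of 3 livers. For Dbp, Usp2, Ciart and Tef the unstimulated knockout livers 1 and 3 and HGF knockout liver 2 are above all other arrays, and for Arntl, Clock and Nfil3 they are below all others.

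E-boxes in the promoters of 2 output genes are shown with the letters CACGTG, which read the same on both strands, in capitals.
Ciart: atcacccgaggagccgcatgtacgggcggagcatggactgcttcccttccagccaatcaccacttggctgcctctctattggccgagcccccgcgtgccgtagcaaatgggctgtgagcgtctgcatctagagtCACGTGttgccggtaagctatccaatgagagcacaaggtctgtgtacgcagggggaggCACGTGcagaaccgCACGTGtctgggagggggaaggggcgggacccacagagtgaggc
Tef: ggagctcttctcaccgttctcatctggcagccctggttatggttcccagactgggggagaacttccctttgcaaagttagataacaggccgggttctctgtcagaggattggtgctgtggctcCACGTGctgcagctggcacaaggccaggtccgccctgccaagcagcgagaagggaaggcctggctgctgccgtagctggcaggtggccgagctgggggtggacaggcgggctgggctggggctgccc
The Ciart window is chr3:95882229-95882478 on the minus strand, with E-boxes 116 to 111, 58 to 53 and 44 to 39 bases before the start. The Tef window is chr15:81802423-81802672 on the plus strand, for 1 of 2 starts in the table, with an E-box 127 to 122 bases before it. An E-box was found in 3 of the 10 tested output genes with a promoter, in 1 of 7 core clock genes and in 6.02% of all windows. E-boxes were not particular to clock genes: the other lists ranged from 0 of 21 acute phase genes to 4 of 11 sterol synthesis genes. Dbp and Usp2 had none in this window, although their levels had the same order over the arrays. No overlap between matches to different motifs occurred in the windows printed here.

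Metabolic genes split between those that followed the clock order and those that did not. Bile acid genes were higher in 12 and lower in 12 of 24 tested members, and 2 had SDs above 1. Cyp7a1, the rate-limiting enzyme of bile acid synthesis, was at 9.69, 5.87 and 9.88 without HGF and 7.66, 9.79 and 6.10 with HGF, high in unstimulated livers 1 and 3 and HGF liver 2. Nr0b2, the bile acid-induced repressor of Cyp7a1, was at 7.14, 3.71 and 7.57 without HGF and 8.51, 7.80 and 4.67 with HGF, low in unstimulated liver 2 and HGF liver 3 alone. Abcg8, a sterol exporter, was at 8.46, 7.04 and 8.13 without HGF and 6.92, 8.02 and 5.63 with HGF, a difference of -1.02 with a standard error of 0.67.

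Fat synthesis genes were higher in 13 of 18 tested members with a median difference of 0.13. By limma 2 of the 18, Acly and Gpam, were higher at an unadjusted p under 0.05, against 0.605% of all tested genes. This was not particular to fat synthesis. In either direction, 2 of 14 growth hormone axis genes and 2 of 13 matrix genes also had an unadjusted p under 0.05 by limma. Fasn, the fatty acid synthase, was at 9.75, 9.69 and 9.26 without HGF and 9.63, 10.51 and 10.68 with HGF, with HGF livers 2 and 3 highest and HGF liver 1 inside the unstimulated range. Thrsp, a lipogenic regulator, was at 12.05, 9.79 and 12.29 without HGF and 10.41, 12.53 and 11.26 with HGF. Scd1, a fatty acid desaturase, was at 12.03, 11.53 and 11.77 without HGF and 11.52, 12.45 and 12.15 with HGF. Sterol synthesis genes were higher in 10 of 14 with a median of 0.21 and no SD above 1. Sqle, squalene epoxidase, was at 7.84, 8.57 and 7.88 without HGF and 8.68, 8.11 and 8.85 with HGF, a difference of 0.45 with a standard error of 0.28.

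Glucose metabolism genes were higher in 8 of 15 with a median of 0.04. G6pc, the last enzyme of glucose release, was at 9.16, 7.04 and 8.49 without HGF and 9.63, 8.71 and 8.85 with HGF, and unstimulated liver 2 was the lowest. Igfbp1, an insulin-like growth factor binding protein induced by stress, was at 10.19, 13.65 and 10.46 without HGF and 11.92, 10.28 and 13.40 with HGF, with unstimulated liver 2 and HGF liver 3 highest. Fat oxidation genes were higher in 10 of 20, with a median of 0.0014 and 1 SD above 1. That gene was Ppara, the fat-sensing nuclear receptor, at 10.99, 9.15 and 10.80 without HGF and 10.03, 10.89 and 8.85 with HGF. Xenobiotic genes were higher in 7 of 17 with a median of -0.03 and growth hormone axis genes in 7 of 14 with 0.01.

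Stress lists had the inflammatory order in single members. NRF2 and haem genes were higher in 6 of 14 with a median of -0.05, and Hmox1, haem oxygenase, was at 5.71, 10.01 and 6.51 without HGF and 8.43, 6.35 and 9.84 with HGF. ER stress genes were higher in 17 of 21 with a median of 0.08. Hspa5, the chaperone BiP, was at 11.23, 12.30 and 11.10 without HGF and 11.79, 11.09 and 12.13 with HGF, and Trib3, a pseudokinase, was at 5.85, 3.28 and 6.04 without HGF and 4.48, 6.05 and 3.22 with HGF in the opposite order. Heat shock genes were higher in 8 of 13 with a median of 0.0093, and Hspa1b, an inducible Hsp70, was at 5.10, 8.65 and 6.16 without HGF and 7.0, 5.34 and 7.55 with HGF. Genes of p53, growth arrest and apoptosis were higher in 4 of 13 with a median of -0.07, and Fas, the death receptor, was at 6.63, 8.99 and 6.56 without HGF and 7.63, 6.66 and 9.17 with HGF. Of 26 cell cycle genes 7 passed the filter, 2 higher and 5 lower, with a median of -0.20. Ccnd1, cyclin D1, was at 5.43, 5.47 and 6.28 without HGF and 5.41, 5.17 and 5.65 with HGF.

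Cytoskeleton and motility genes were higher in 15 of 22 with a median of 0.04 and 5 SDs above 1. Rnd1, a GTPase that loosens actin fibres, was at 6.04, 11.56 and 4.12 without HGF and 5.26, 3.61 and 11.18 with HGF, and only unstimulated liver 2 and HGF liver 3 were above 7. Tubb2a, a beta tubulin, was at 8.02, 10.64 and 7.44 without HGF and 10.58, 8.24 and 10.88 with HGF, with HGF liver 1 among the high arrays. Actb was at 12.02, 12.13 and 12.21 without HGF and 12.23, 12.16 and 12.16 with HGF. Arrdc3, an arrestin-related gene outside the lists, was the next most widely spread gene after Dbp and Cxcl10 and was at 10.03, 3.19 and 9.91 without HGF and 9.08, 10.47 and 3.06 with HGF, so that unstimulated liver 2 and HGF liver 3 alone were low.

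A few widely spread genes followed neither order. Of the 245 genes, 9 had neither unstimulated liver 2 and HGF liver 3, nor these 2 with HGF liver 1, all above or all below the rest: Aacs, Bcl6, Clec2d, Cyp26a1, Dct, Jun, Mme, Pdk4 and Tff3. Cyp26a1, the enzyme that clears retinoic acid, was at 8.32, 6.18 and 3.05 without HGF and 8.61, 3.17 and 2.73 with HGF, highest in unstimulated liver 1 and HGF liver 1. Pdk4, the kinase that restrains pyruvate dehydrogenase, was at 3.93, 5.69 and 4.32 without HGF and 6.51, 4.73 and 4.12 with HGF, highest in HGF liver 1. These 9 were counted after their values were seen.

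Some genes of small spread did not overlap between the groups as titled. In 155 genes (2.54%) all 3 HGF livers lay above all 3 unstimulated livers, and in 78 genes (1.28%) all lay below. The genes named next were chosen because they did not overlap or had the smallest p, so their differences are a description and none passed the test. Of these 233 genes, 5 differed at least 2-fold between the group means, and the rest differed by less. Over all tested genes 27 differed at least 2-fold. Acly, which makes acetyl-CoA for fat synthesis, was at 9.57, 9.77 and 9.37 without HGF and 10.23, 10.23 and 10.30 with HGF, a difference of 0.69 with a standard error of 0.14. Gpam, the first enzyme of triglyceride synthesis, was at 8.07, 7.98 and 7.83 without HGF and 8.28, 8.69 and 8.41 with HGF, a difference of 0.50 with a standard error of 0.15, and of 0.30 with array weights. Serpina12, the serpin vaspin, was at 6.57, 7.16 and 6.78 without HGF and 7.62, 8.31 and 7.75 with HGF, a difference of 1.06. For all 3 genes the control livers with HGF spanned most of the range of both knockout groups, from 8.73 to 10.87 for Acly.

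Aqp8, a water channel, was at 8.41, 8.50 and 8.68 without HGF and 8.93, 9.54 and 9.26 with HGF, and A2ml1, a protease inhibitor, had the widest gap among the higher genes at 5.06, 6.57 and 6.59 without HGF and 7.63, 7.78 and 7.13 with HGF. The difference of A2ml1 was 1.44, 0.93 without unstimulated liver 1, 0.88 without both replicate 1 livers and 2.20 with array weights. Slc3a1, a subunit of the cystine transporter, was at 5.17, 6.03 and 4.24 without HGF and 6.22, 6.86 and 6.84 with HGF. Its difference of 1.49 was the next largest increase after that of Egr1, and it was 0.94 without both replicate 3 livers. Dancr, a noncoding RNA, was at 4.32, 3.90 and 4.08 without HGF and 4.36, 4.86 and 5.02 with HGF, a difference of 0.65 that became 0.39 with a pseudocount of 16 and 0.20 with array weights. Igfbp3, a carrier of insulin-like growth factors, was at 5.88, 5.60 and 5.48 without HGF and 6.18, 6.29 and 6.04 with HGF. Carm1, an arginine methyltransferase, and Pgd, an enzyme of the pentose phosphate pathway, were higher by 0.37 and 0.31. Alyref, an mRNA export factor, was higher by 0.36, Ces2e, a carboxylesterase, by 0.25 and Gopc, a Golgi protein, by 0.27.

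Some matrix genes were lower with HGF. Of 13 tested matrix genes 5 were higher and 8 lower with HGF, the median difference was -0.15, and 3 of the 13 had all HGF livers below all unstimulated livers, as had 1.28% of all tested genes. Mgp, matrix Gla protein, an inhibitor of calcification, had the smallest p of all tested genes and was at 4.30, 4.32 and 4.52 without HGF and 3.49, 2.79 and 2.46 with HGF. Its group means were 4.38 ± 0.12 without HGF and 2.91 ± 0.53 with HGF (SD, n = 3 each), a difference of -1.47 with a standard error of 0.27. Only the unstimulated knockout livers were above 4, so Mgp passed the filter through these 3 arrays alone. Its place in the test, and among the 3 matrix genes counted above, thus depended on the group in which it was high. The control livers were at 2.16 to 2.95, so the values with HGF were near background. The difference of Mgp was -0.66 with a pseudocount of 16 and -0.97 with array weights. Col3a1, the type III collagen chain, was at 9.11, 9.10 and 8.51 without HGF and 8.07, 8.21 and 7.71 with HGF, a difference of -0.91 with a standard error of 0.22. Lum, the proteoglycan lumican, separated by less than the last digit given here, at 7.03, 6.75 and 7.47 without HGF and 6.75, 6.60 and 6.0 with HGF. Col4a1, a basement membrane collagen, followed the inflammatory order instead, at 7.27, 8.51 and 6.43 without HGF and 7.43, 7.03 and 8.87 with HGF.

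Outside the matrix list, Wwtr1, the Hippo pathway coactivator TAZ, was at 6.12, 6.02 and 6.36 without HGF and 5.20, 5.70 and 5.74 with HGF, a difference of -0.62 with a standard error of 0.19. Ttc39b was at 4.71, 4.80 and 4.77 without HGF and 4.31, 4.09 and 4.42 with HGF, and Usp46, a deubiquitinase, was at 4.57, 4.54 and 4.57 without HGF and 4.21, 3.86 and 3.91 with HGF. Akr1e1, an aldo-keto reductase, was at 8.66, 7.69 and 8.76 without HGF and 6.86, 7.53 and 6.96 with HGF, a difference of -1.26 with a standard error of 0.34. Smpd2, a sphingomyelinase, Tatdn2, Ahnak, Prpf18, a splicing factor, and Npepps, an aminopeptidase, had differences of -0.47, -0.58, -0.36, -0.66 and -0.28. Trappc6b, a subunit of a vesicle tethering complex, was at 7.09, 7.07 and 7.0 without HGF and 6.84, 6.39 and 6.64 with HGF. In each of these genes the highest HGF liver lay below the lowest unstimulated liver. With a pseudocount of 16 the differences were -0.32 for Usp46, -0.29 for Ttc39b and -0.22 for Ahnak, against -0.57, -0.49 and -0.36, and with array weights that of Tatdn2 was -0.35.

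**Figure D5:**
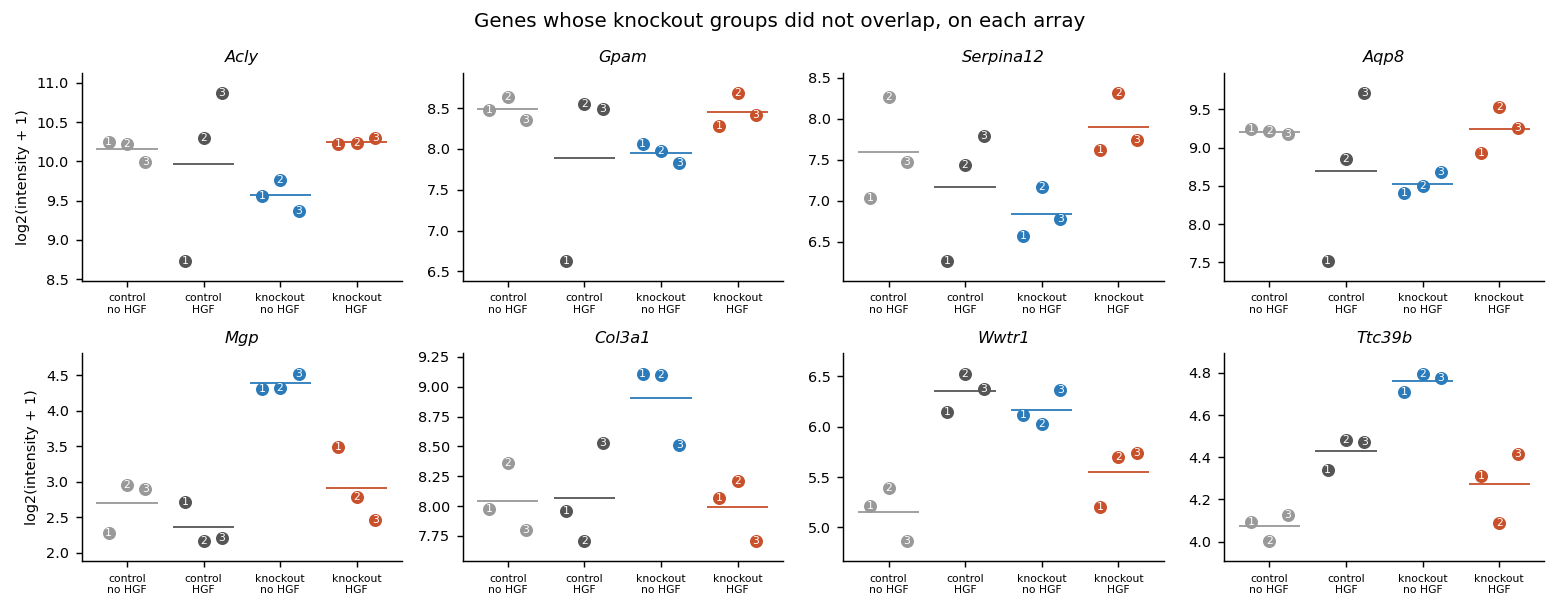
Log2(intensity + 1) of 8 genes whose knockout groups did not overlap, on all 12 arrays, 1 numbered point per liver and a line at each group mean of 3 livers. The upper 4 genes are higher and the lower 4 lower in the HGF knockout livers, by 0.50 to 1.06 and by -0.49 to -1.47, and in the upper row HGF control liver 1 is the lowest array.

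The calls depended on the replicate 2 livers. Without unstimulated liver 2 and HGF liver 2, limma called 16 of 6112 genes (0.262%), 10 higher and 6 lower, at adjusted p from 0.0376 to 0.0481. The 10 were Arntl, Cxcl1, Cxcl13, Egr1, Elovl3, Il1b, Junb, Marco, Socs3 and Tubb2a, and the 6 were Akr1e1, Ciart, Dclk3, Lonrf1, Usp2 and Wee1. Without these 2 livers Egr1 differed by 4.01, Junb by 2.55, Cxcl1 by 4.43, Socs3 by 2.72 and Usp2 by -5.64. These values compare livers 1 and 3 of each group only, which lay on opposite sides for the clock genes. Leaving out unstimulated liver 2 or HGF liver 2 alone gave 0 calls, with 218 and 114 genes at an unadjusted p under 0.05 by limma.

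Whether the HGF difference was another in knockout than in control livers was tested as an interaction over all 12 arrays. The knockout arrays carry the numbers 7 to 12 in the labels and the control arrays 1 to 6, so genotype cannot be told apart from array number. By limma 0 of 6427 genes (0%) passed, with a smallest adjusted p of 0.203 and 694 genes at an unadjusted p under 0.05. The 5 genes with the smallest p were Wwtr1, Csrp2, Sertad2, Ttc39b and Klf7. For Wwtr1 the difference with HGF was -0.62 in knockout livers and 1.20 in control livers, an interaction of -1.82 with a standard error of 0.27. Csrp2, a LIM domain protein, was at 8.27, 8.73 and 8.73 without HGF and 8.22, 8.22 and 8.28 with HGF in the knockouts, with an interaction of -1.18. Sertad2, a transcriptional coregulator, was at 7.37, 7.35 and 7.29 without HGF and 6.91, 7.39 and 7.14 with HGF, with an interaction of -1.21. Klf7, a zinc finger factor, was at 3.56, 4.17 and 3.94 without HGF and 3.37, 3.55 and 3.96 with HGF and passed the filter through the control livers with HGF, at 4.30 to 4.73, with an interaction of -1.55.

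For genes of the inflammatory lists the 2 genotypes had unlike differences of means but no called interaction. The NF-kappaB list had a median HGF difference of 0.22 in knockout livers and 3.10 in control livers, and the immediate early factors 0.52 and 2.46. Icam1 had an interaction of -6.41 with a standard error of 2.80, and Mt2 one of -7.84 with 2.59. Junb had an interaction of -3.33 with a standard error of 0.97 and a limma adjusted p of 0.343. The interaction calls also moved with single livers: 1 gene was called without unstimulated knockout liver 1 (Csrp2), 1 without HGF knockout liver 3 (Bach1), 1 without both knockout replicate 3 livers (Bach1) and 23 without both knockout replicate 2 livers. Those 23 included Arntl, Clock, Nfil3, Ciart, Usp2, Wee1 and Wwtr1.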

How the data were processed

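Total RNA of 12 mouse livers was hybridised to 12 Affymetrix arrays, 6 of them used here for the knockout comparison. The deposited intensities are on a linear scale and were made with GCRMA, per the submitters' processing notes, which corrects for background and normalizes between arrays, so a shift common to most genes would be hidden; no version is named. The table holds 16539 probe sets, 64 of them controls; the platform annotation gave 15780 a single symbol and 695 none, and symbols come from it.

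From the deposited intensities log2(intensity + 1) was computed. Genes at 4 or more on at least 3 of the 6 arrays were tested, 6112 in all, with limma 3.58.1 in R 4.3.3 (2 group means, empirical Bayes, two-sided, Benjamini-Hochberg adjustment, threshold 0.05, 4 residual degrees of freedom). The interaction used 12 arrays and 4 group means. The labels state 3 animals per group. Precision is limited by having 3 arrays in each group. The code was tested on simulated data.

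Members, the 26 pathway lists and the 11 marker lists were chosen with earlier results of these data known. Named genes are list members, Met and Hgf, the 10 smallest p in each direction, the 12 largest within-group SDs, the 10 widest gaps in each direction and the 5 smallest interaction p, plus genes called without replicate 2 or in neither order, which were chosen after their values were seen. Lists are described by counts, with no set test. Promoters are the 250 bases before the start, from RefSeq on GRCm38.p6, and 5056 tested genes matched one. Alternatives were another pseudocount (16), no filter or a filter at 6, quantile normalization, array weights, an intensity trend, a replicate block, all 4 groups in one fit and leaving out arrays. The first principal component as a covariate, and 1 fit of all 4 groups without replicate 2, were added after seeing the data.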

Additional observations from a re-analysis of the deposited data

Results flagged for a closer look

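Among the 455 tested genes that are list members or named by rule, 37 had knockout groups that did not overlap, against 233 of all 6112 tested genes. The 455 include genes named for the widest gaps, among them Wwtr1, Ttc39b and Npepps, which raises the count of 37. In 6 of the 37 the control groups did not overlap either and lay in the opposite direction. Among the 233 genes this held for 55, which are 0.9% of all 6112 tested genes. In 19 of the 233 the groups did not overlap in the same direction in both genotypes. The 6 of 37 are to be set beside the 55 of 233. The interaction, knockout minus control HGF difference, was -1.82 for Wwtr1, -0.85 for Ttc39b, -0.56 for Npepps and -0.36 for Akt2, a kinase downstream of Met. It was 0.63 for Mst1, the ligand of the Met-related receptor Ron, and 0.73 for Cyp2c29, a cytochrome P450. None of these interactions passed the limma test over all genes, where the smallest adjusted p was 0.203.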

How the results depend on the processing

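With 3 arrays a group, 0 genes were called for HGF in knockout livers by limma with a pseudocount of 16, no filter, a filter at 6, quantile normalization, an intensity trend, array weights (1148 genes at an unadjusted p under 0.05), all 4 groups in one fit, or the first principal component as a covariate (188). Leaving out arrays gave 0 to 16 calls, and all 4 groups in one fit without both knockout replicate 2 arrays, chosen after seeing the data, gave 279, 143 higher and 136 lower. For the interaction, array weights gave 268 calls (156 higher, 112 lower), leaving out arrays gave 0 to 23, and a pseudocount of 16 and no filter gave 0. Without a filter on low values 1041 genes had groups that did not overlap, and at a filter of 6 there were 140, against 233. The first principal component as a covariate turned the sign for Arrdc3 (0.81), Icam1 (-0.79), Saa2 (-0.39), Cd14 (-0.32) and S100a9 (-0.069), array weights for Lcn2 (0.12), and the fit of all groups without both knockout replicate 2 arrays for Cxcl10 (3.99), Rnd1 (3.14), Lcn2 (3.26) and Saa3 (2.39); the cause was not tested. Leaving out arrays gave differences of -6.77 to 1.25 for Dbp, -4.48 to 3.99 for Cxcl10, -3.90 to 3.17 for Arrdc3, -4.36 to 3.14 for Rnd1, -3.47 to 4.18 for Icam1, -1.95 to 4.80 for Mt2, -3.58 to 3.26 for Lcn2, -2.31 to 4.23 for Saa2, -2.15 to 4.16 for Cd14, -5.64 to 0.12 for Usp2, -1.74 to 4.36 for S100a9 and -3.73 to 2.39 for Saa3, the ends set by leaving out both replicate 2 or both replicate 3 arrays. Of the values for single named genes, 536 kept their direction and side of the threshold, 55 turned sign and 9 gained a call; of list medians 439 stayed within the spread and 29 moved. Same-numbered arrays correlated in their deviations from the group means at 0.0366, -0.83 and -0.671. Deviations of 3 arrays from their own mean are not independent, so these values cannot decide whether the numbers pair the samples. A replicate block gave 0 calls for HGF and 0 for the interaction.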
